A study of Rattus norvegicus with 12 samples.

Results

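The miR-26 family in these libraries consisted of 4 mature strands, rno-miR-26a-5p, rno-miR-26a-3p, rno-miR-26b-5p and rno-miR-26b-3p (written without the species prefix from here on), taken by name from the 685 miRNA names that were counted. Small RNA was sequenced from primary cortical neurons of Sprague Dawley rats, prepared at embryonic day 17, plated at 100000 cells per square centimetre, given lentivirus after 10 days of culture and lysed after 14 days. The short hairpin RNA (shRNA) of the virus was non-targeting (shNTC), directed against Stau2 (shStau2) or directed against Pum2 (shPum2), with 4 libraries per group that the submitters call biological replicates. The targets are Staufen2, which recognises double-stranded RNA, and Pumilio 2, which recognises short single-stranded motifs of mRNAs. All groups, the control included, received virus and an shRNA. The sources used here do not give the promoter that drove the shRNA, and the mRNAs of Stau2 and Pum2 were not analysed here.

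A miRNA hairpin is cut into a duplex, of which the guide strand stays bound to an Argonaute protein and pairs with target mRNAs through its seed (bases 2 to 8), while the passenger strand is mostly degraded. In the miR-26 family the 5p strand is the guide. It is made in most tissues, accumulates as neurons differentiate, and is known to repress the mRNA of the methyltransferase EZH2, among others. The hairpins lie in genes of the CTDSP group, whose phosphatases act with REST, a repressor of neuronal genes outside neurons, and miR-26 is known to repress mRNAs of these phosphatases. In hippocampal neurons miR-26a has been linked, together with miR-384-5p, to the maintenance of long-term potentiation.

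The mature sequences are shown because the guides are so close that reads of either could be assigned to the other, while the passengers are not. All 4 names matched RefSeq's table of assembly GRCr8; capitals mark the seed.
miR-26a-5p: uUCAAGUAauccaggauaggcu
miR-26b-5p: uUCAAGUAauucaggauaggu
miR-26a-3p: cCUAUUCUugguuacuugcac
miR-26b-3p: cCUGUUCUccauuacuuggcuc

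Both guides carried the seed UCAAGUA, and no other of the 693 mature names in that table did. Counted from 1 at the 5′ end, with the miR-26a base first, the guides were identical at 19 of 21 compared positions and differed by C11U and C21U, and miR-26a-5p was 1 base longer (22 against 21). The passengers were identical at 14 of 21 positions. A4G lies within their seeds, so that these were CUAUUCU for miR-26a-3p and CUGUUCU for miR-26b-3p, each shared with 0 other names in the table. The sources used here do not say how the authors assigned reads between the guides, which leaves the split between them uncertain.

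The hairpins are shown for the position of the strands, which are in capitals. RefSeq's table gives Mir26a at chr8:127633048-127633137 and Mir26b at chr9:83425709-83425793 of GRCr8, both on the plus strand. Mir26a lies within the span of Ctdspl and Mir26b within that of Ctdsp1; whether in an intron or an exon was not analysed here.
Mir26a: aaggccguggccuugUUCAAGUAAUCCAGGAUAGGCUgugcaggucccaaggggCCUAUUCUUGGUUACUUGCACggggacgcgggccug
Mir26b: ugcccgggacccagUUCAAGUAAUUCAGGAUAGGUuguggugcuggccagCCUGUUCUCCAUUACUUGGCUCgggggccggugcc

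Total counts ran from 3836349 to 5415763 per library, and markers of the labelled cell type were abundant: the 7 neuron miRNAs examined (miR-9a-5p, miR-128-3p, miR-137-3p, miR-218a-5p, miR-124-3p, miR-138-5p and miR-129-5p) summed to 279562 to 344965 CPM (counts scaled to a common library size) in a library. Most of this sum was miR-9a-5p, a miRNA of neural progenitors and neurons, at a mean of 190368 CPM. Next came miR-128-3p at 91246 CPM, and miR-124-3p averaged 5099 CPM. The miRNAs examined as markers of other cell types summed to lower levels, which does not measure how many such cells were present. The 4 miRNAs of astrocytes and dividing cells (miR-21-5p, miR-23a-3p, miR-27a-3p and miR-146a-5p) summed to 2553 to 7486 CPM, 3 of oligodendrocytes to 219 to 406 CPM and 6 of vessels or mesenchyme to 558 to 1067 CPM. Of 6 for blood or microglia, 5 were measured and summed to 85.4 to 191 CPM. The red-cell miRNA miR-451-5p was near absent in every group. It stood at 0 CPM in all of shStau2, 1.41 ± 1.77 CPM in shNTC and 0.683 ± 0.795 CPM in shPum2 (SD, n = 4). No 2 libraries had identical counts. In whole cultures, fewer cells of a type and less of a miRNA per cell cannot be told apart.

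The guide miR-26a-5p was among the most abundant miRNAs of these neurons, and miR-26b-5p stood several-fold lower. Levels are CPM of the miRNA counts of a library, scaled by the trimmed mean of M-values (TMM). Over the 12 libraries miR-26a-5p averaged 20320 CPM, rank 11 of 685 names, from counts of 73117 to 106479 per library. The next names in the order, miR-125a-5p above at 20372 CPM (16536 to 24927) and let-7i-5p below at 19827 CPM (17119 to 22584), overlapped its range of 18487 to 22864 CPM. The second guide, miR-26b-5p, averaged 3854 CPM, rank 34, from 12328 to 23748 counts. Its neighbours miR-30c-5p at 3855 CPM and miR-384-5p at 3486 CPM overlapped its range of 3040 to 4655 CPM as well. Together the 4 strands made up 2.25 to 2.52% of a library's miRNA counts.

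Both passengers were rare and stood at nearly the same level. The strand miR-26a-3p averaged 6.71 CPM (rank 484) from 22 to 40 counts per library, and miR-26b-3p averaged 6.93 CPM (rank 478) from 20 to 41 counts. Both lay above a floor of 3 counts, equal to 0.558 to 0.788 CPM, in every library. Summed over the libraries, miR-26a-3p had 363 counts and miR-26b-3p 376. The former was higher in 5 libraries, lower in 6 and equal in 1. Thus the guides differed in mean level by a factor of 5.27, while for the passengers that factor was 0.968.

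Few hairpins were as one-sided as these. Among 196 hairpin names with both arms named alike and at least 1000 counts of the stronger arm over the 12 libraries, the median ratio of the stronger to the weaker strand was 15.0. For miR-26a it was 3028, the highest of the 196, and for miR-26b it was 559, the fifth highest. The plot of both strands of each hairpin shows how far the family lies from the diagonal of equal counts. Counts of the weaker strand are small here, so the ratio of a single library carries a counting error of 15.6 to 22.4% from the passenger alone.

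**Figure D1:**
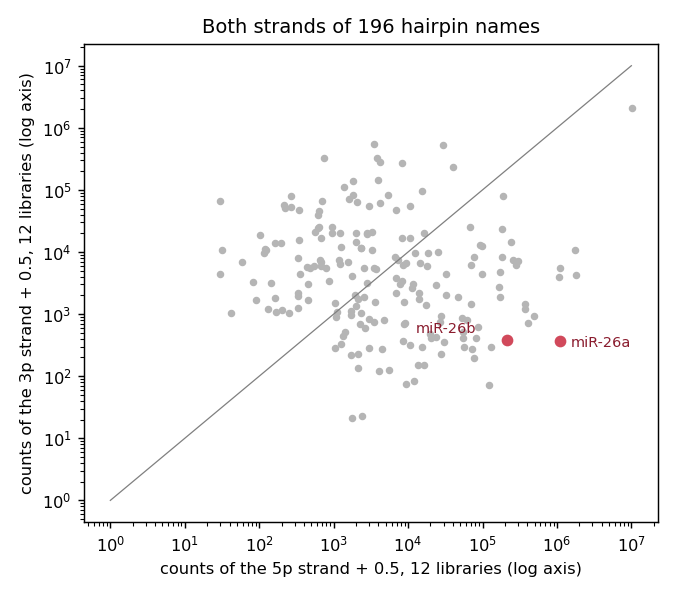
Counts of the 5p strand (x axis) against the 3p strand (y axis), each summed over 12 libraries with 0.5 added, on log axes, for 196 hairpin names; the line marks equal counts. The red points, miR-26a with 1099260 and 363 counts and miR-26b with 210226 and 376, share a height but differ along the x axis.

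The comparison of shStau2 with shNTC asks what depletion of Staufen2 changes. Here miR-26a-5p stood slightly higher and miR-26b-5p slightly lower with shStau2, and none of the 4 strands passed the test: 0 of 4 were called in edgeR's quasi-likelihood test at an adjusted p of 0.05, where 0.318% of all 628 miRNAs tested were called. DESeq2 gave an adjusted p to both guides but to neither passenger and called 0 of these 2, against 4.29% of the 420 miRNAs that got one. In edgeR 1 of 4 strands had an unadjusted p under 0.05, as did 11.3% of all miRNAs tested. The median log2 fold change of the 4 strands was 0.034, against 0.0033 over all miRNAs tested.

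Per library, miR-26a-5p stood at 19365, 18487, 20869 and 18607 CPM in shNTC replicates 1 to 4, and at 21236, 21004, 22864 and 21775 CPM in shStau2 replicates 1 to 4. Every shStau2 library thus lay above every shNTC library, though by a narrow margin; the groups were separated in this direction for 4.3% of the miRNAs tested. The means were 19332 ± 1096 CPM in shNTC and 21720 ± 829 CPM in shStau2 (SD, n = 4), a log2 fold change of 0.17 (SE 0.066, 95% interval 0.027 to 0.31) with adjusted p = 0.304 in edgeR. Scaling to library totals in place of TMM gave 0.11.

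The replicate numbers paired the libraries across groups. With TMM factors and the number as a block in the model, the interval of miR-26a-5p narrowed. It was higher in 4 of 4 pairs, by 0.13, 0.18, 0.13 and 0.23 on the log2 scale; 16.1% of the miRNAs tested were higher in all pairs. The log2 fold change with the block was 0.17 (SE 0.053, 95% interval 0.057 to 0.28), and the adjusted p of 0.0673 in edgeR missed the threshold, which 6.21% of all miRNAs passed in that model. With upper-quartile factors within the block it passed (log2 fold change 0.18, adjusted p = 0.0347). That alternative was chosen after seeing the data.

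The other guide moved the opposite way. For miR-26b-5p the libraries held 4502, 4176, 4655 and 3137 CPM in shNTC and 4044, 3632, 4006 and 3040 CPM in shStau2. Here the groups overlapped, because replicate 4 was low in both. The means were 4117 ± 683 and 3681 ± 465 CPM (SD, n = 4), a log2 fold change of -0.16 (SE 0.14, 95% interval -0.45 to 0.13, adjusted p = 0.73 in edgeR). All 4 pairs were lower, as were those of 14.5% of the miRNAs tested, and with the block the log2 fold change was -0.16 (SE 0.067, 95% interval -0.29 to -0.016, adjusted p = 0.18 in edgeR). Library totals within the block gave -0.22 (adjusted p = 0.0638 in edgeR), so which guide had the smaller adjusted p depended on the scaling. Without shStau2 replicate 4 the unblocked value was -0.084, without shNTC replicate 3 it was -0.10 and without shNTC replicate 4 it was -0.27. With the block 2 of 4 strands, both guides, had an unadjusted p under 0.05, as did 22.5% of all miRNAs tested, and 0 of 4 passed after adjustment.

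The passengers showed no shift that their counts could resolve. In shNTC miR-26a-3p stood at 7.06 ± 0.66 CPM and in shStau2 at 7.33 ± 1.46 CPM (SD, n = 4), a log2 fold change of 0.058 with a 95% interval of -0.35 to 0.46. For miR-26b-3p the levels were 7.29 ± 1.25 and 7.35 ± 1.15 CPM, with a log2 fold change of 0.0098 and a 95% interval of -0.45 to 0.47. These intervals cannot separate an unchanged strand from a change of the size seen in either guide.

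**Figure D2:**
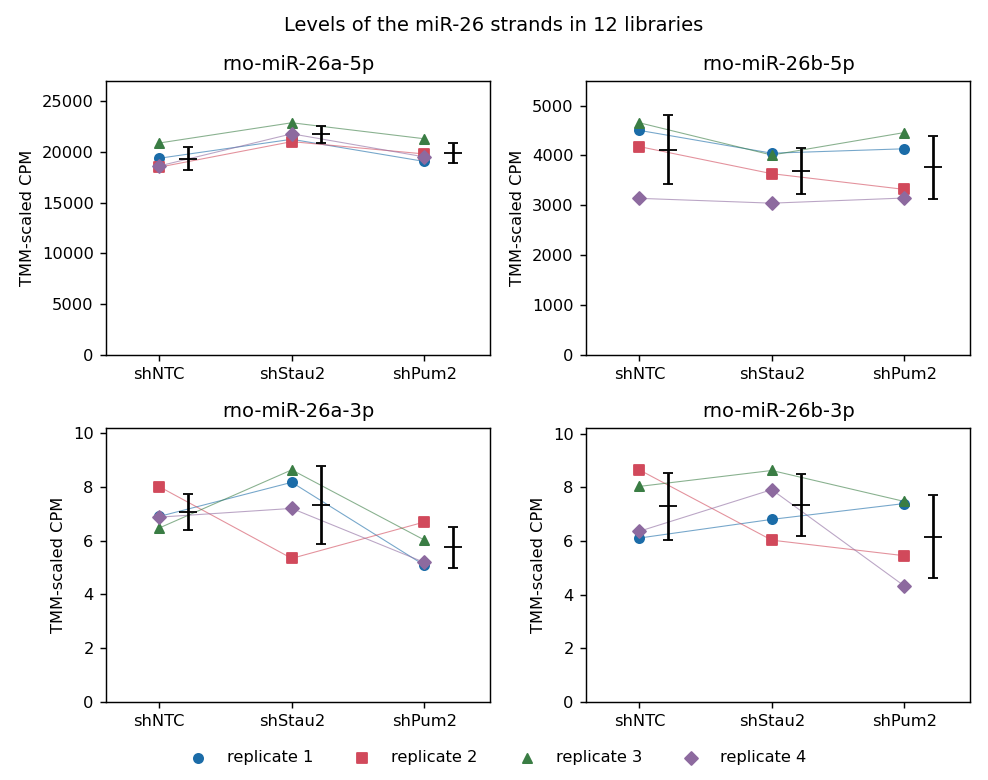
TMM-scaled CPM of the 4 strands (y axes, each from 0) in the shNTC, shStau2 and shPum2 libraries; thin lines join libraries with the same replicate number, and black bars give the mean ± SD (n = 4). All shStau2 libraries lie above all shNTC libraries for miR-26a-5p, from 21004 against up to 20869 CPM, and replicate 4 is the lowest of each group for miR-26b-5p.

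The comparison of shPum2 with shNTC asks what another active shRNA changes, and here 0 of 4 strands were called, with or without the block or in DESeq2, and 0 of 4 had an unadjusted p under 0.05 in either edgeR model. In the model without the block 0% of all miRNAs were called and 1.43% had an unadjusted p under 0.05. With the block these shares were 0.159% and 7.32%, and DESeq2 called 0% of 626. Libraries of shPum2 held 19053, 19790, 21289 and 19500 CPM of miR-26a-5p, overlapping those of shNTC, for a log2 fold change of 0.042 (SE 0.066, 95% interval -0.098 to 0.18, adjusted p = 0.982 in edgeR). For miR-26b-5p they held 4132, 3317, 4457 and 3144 CPM, lower than shNTC in 3 of 4 pairs (log2 fold change -0.13, SE 0.14, 95% interval -0.42 to 0.16, adjusted p = 0.982 in edgeR).

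The passenger miR-26a-3p was lower in 4 of 4 pairs, at 5.75 ± 0.756 CPM (SD, n = 4) in shPum2, as were 6.85% of the miRNAs tested, and its log2 fold change was -0.30 (95% interval -0.72 to 0.12). In counts these were 22, 27, 29 and 24 with shPum2 against 35, 37, 33 and 27 with shNTC, so that shPum2 replicate 3 lay above shNTC replicate 4 in counts, and the groups overlapped in CPM as well. For miR-26b-3p the level was 6.16 ± 1.54 CPM and the log2 fold change -0.24 (95% interval -0.71 to 0.22).

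Between shStau2 and shPum2, the further control of the series, 0 of 4 strands were called (background 0.478% without the block and 3.98% with it), as in DESeq2 (1.12% of 626). An unadjusted p under 0.05 was found for 0 of 4 without the block, against 9.39% of all miRNAs, and for 1 of 4 with it, against 19.7%. That strand was miR-26a-5p, higher with shStau2 in 4 of 4 pairs as were 14% of the miRNAs tested. Its log2 fold change was 0.13 without the block (95% interval -0.015 to 0.27, adjusted p = 0.544 in edgeR) and 0.13 with it (95% interval 0.015 to 0.24, adjusted p = 0.183 in edgeR); scaling to library totals gave 0.068 without the block. For miR-26b-5p the difference was -0.032 (95% interval -0.32 to 0.26), and for the passengers 0.35 (miR-26a-3p, 95% interval -0.065 to 0.77) and 0.25 (miR-26b-3p, 95% interval -0.22 to 0.72). The 3 comparisons share libraries, since each group serves in 2 of them.

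**Figure D3:**
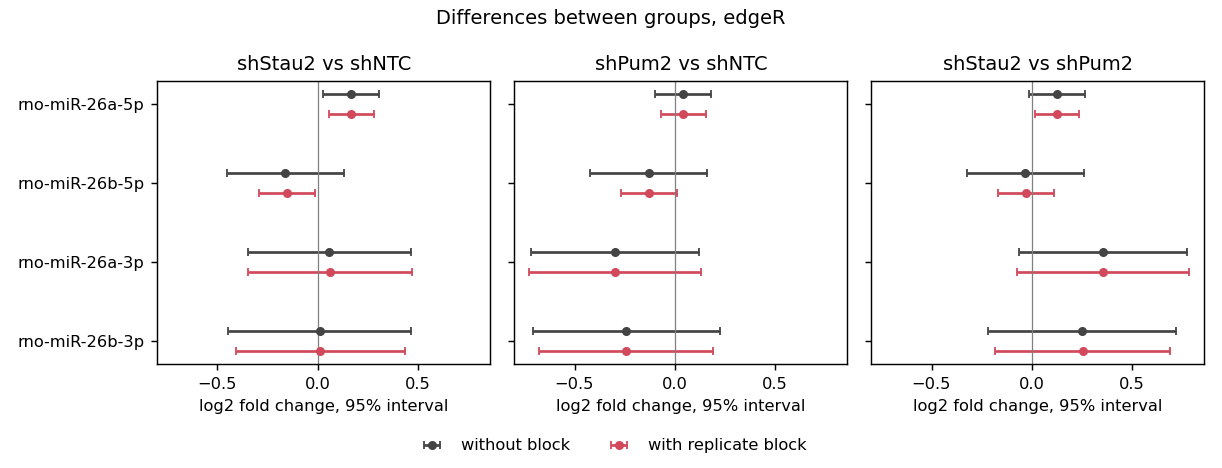
Log2 fold changes of the 4 strands (x axis, with 95% intervals) in 3 comparisons, from edgeR without a block (grey) and with the replicate number as a block (red). With the block the interval of miR-26a-5p in shStau2 against shNTC runs from 0.057 to 0.28 and that of miR-26b-5p from -0.29 to -0.016, on opposite sides of 0.

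The ratio of the guides within a library needs no scaling factor. In shNTC there were 4.30, 4.43, 4.48 and 5.93 counts of miR-26a-5p per count of miR-26b-5p in replicates 1 to 4. In shStau2 the ratios were 5.25, 5.78, 5.71 and 7.16, and in shPum2 4.61, 5.97, 4.78 and 6.20. Replicate 4 had the highest ratio of each group, and the ranges of shNTC and shStau2 overlapped through it.

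With shStau2 the ratio was higher than with shNTC in 4 of 4 pairs. The pairs differed by 0.29, 0.39, 0.35 and 0.27 on the log2 scale, with a mean of 0.32 and an SD between pairs of 0.053, which is a 1.25-fold higher ratio. The SD of the ratio within shNTC was 0.22 and within shStau2 0.19 on that scale. An exact two-sided permutation test of the libraries gave p = 0.114 (adjusted p = 0.386 over 9 tests of ratios, smallest possible p 0.0286). That test takes no account of the pairs. An exact sign-flip permutation test of the pairs gave p = 0.125, the smallest that 4 pairs allow.

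With shPum2 the ratio was also higher in 4 of 4 pairs than with shNTC, by 0.065 to 0.43 on the log2 scale (mean 0.17; exact permutation p = 0.171, adjusted p = 0.386). The mean difference was 0.10 without shPum2 replicate 4 and 0.28 without shNTC replicate 4. Between shStau2 and shPum2 it was higher in 3 of 4 pairs (mean 0.15; exact permutation p = 0.314, adjusted p = 0.471), with a mean difference of 0.061 without shStau2 replicate 4, 0.081 without shPum2 replicate 1 and 0.098 without shPum2 replicate 3. As a share of both guides, miR-26b-5p made up 17.5% ± 2.06 (SD, n = 4) with shNTC, 14.5% ± 1.58 with shStau2 and 15.8% ± 2.01 with shPum2.

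**Figure D4:**
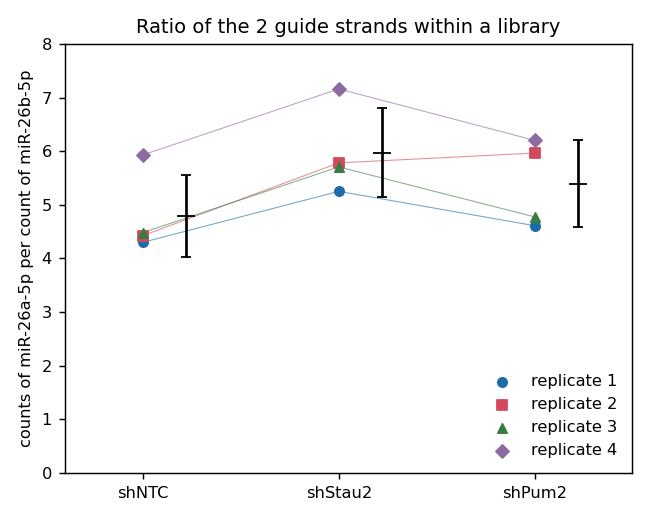
Counts of miR-26a-5p per count of miR-26b-5p within a library (y axis, from 0) by group; thin lines join libraries with the same replicate number, and black bars give the mean ± SD (n = 4). All 4 lines rise from shNTC to shStau2, by 0.27 to 0.39 on the log2 scale, and replicate 4 lies highest throughout, at 5.93 to 7.16.

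The balance of guide and passenger was measured within a library too. There were 2721 ± 370 counts of miR-26a-5p per count of miR-26a-3p with shNTC (SD, n = 4), 3003 ± 596 with shStau2 and 3431 ± 363 with shPum2. The exact permutation p was 0.514 for shStau2 and 0.0571 for shPum2 against shNTC (adjusted p = 0.514 and 0.386). For miR-26b the ratios were 564 ± 116, 503 ± 103 and 611 ± 68.7, with exact permutation p = 0.371 and 0.486 (adjusted p = 0.478 and 0.514). Between shStau2 and shPum2 the exact permutation p was 0.257 for miR-26a and 0.171 for miR-26b (adjusted p = 0.463 and 0.386). These p-values do not show that the arms kept a fixed ratio, since a passenger rests on at most 41 counts.

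The guides differed in how steady they were. After group means were removed, log2 CPM of miR-26a-5p had an SD of 0.069 between libraries, and 4 of the other 627 miRNAs had a smaller one. With the replicate number removed too the SD was 0.032, and 1 of 627 was smaller. In contrast, miR-26b-5p had an SD of 0.23 after group means, above the median of 0.14 for the 81 miRNAs with a mean of at least 1000 CPM, and of 0.083 once the number was removed, below their median of 0.098. Most of its spread thus followed the replicate number: the mean over the 3 groups was 4226 CPM for number 1, 3709 for number 2, 4373 for number 3 and 3107 for number 4, where the libraries lay between 3040 and 3144 CPM. For miR-26a-5p, whose smaller SD also fell from 0.069 to 0.032 with the number removed, the same means were 19885, 19760, 21674 and 19960 CPM. Number 3 had the lowest TMM factor of each group, at 0.949 (shNTC), 0.909 (shStau2) and 0.946 (shPum2), and a lower factor raises CPM. With library totals the SE of miR-26a-5p in shStau2 against shNTC was 0.048 without the block and 0.049 with it. With TMM factors these were 0.066 and 0.053, so the part of this strand's spread that followed the number depended on the scaling. The passengers had SDs of 0.21 (miR-26a-3p) and 0.27 (miR-26b-3p) after group means, near the median of 0.25 over all 628. With the replicate number removed too their SDs were 0.25 and 0.27, above the median of 0.17; 70.5% and 74.6% of the other miRNAs had smaller ones.

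**Figure D5:**
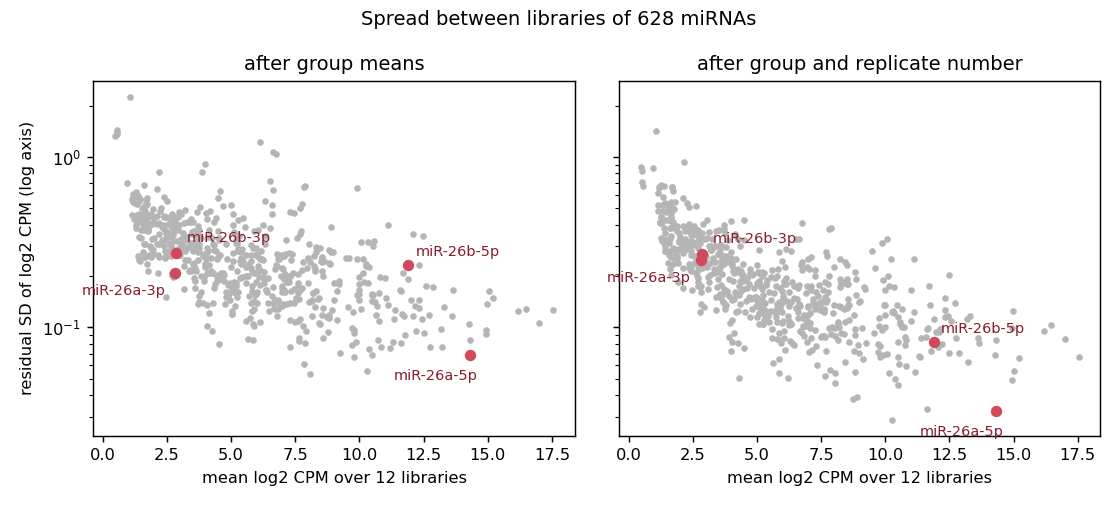
Residual SD of log2 CPM between libraries (y axis, log scale) against the mean log2 CPM (x axis) for 628 miRNAs, after removing group means (left) and group and replicate number (right); the miR-26 strands are red. The SD of miR-26b-5p drops from 0.23 to 0.083 between the panels, and miR-26a-5p lies near the lower edge in both, at 0.069 and 0.032.

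Across the 12 libraries, which share groups and replicate numbers, the guides had a Pearson r of 0.095 and a Spearman rho of -0.12 with each other, given as a description. The miRNAs most like miR-26a-5p, by Pearson r of log2 CPM among 447 others with a mean of at least 10 CPM, were miR-125b-5p (r = 0.90), a relative of lin-4 of worms, miR-3588 (0.88) and miR-361-3p (0.82). With group and replicate number removed these became 0.60, 0.42 and 0.83, which ranked 81, 147 and 10 among the 447. Those most like miR-26b-5p were miR-195-5p (r = 0.91), a member of the miR-15 and miR-16 family, miR-203a-3p (0.89), a miRNA known from skin, and miR-22-5p (0.87). With group and number removed they became 0.68, 0.77 and 0.44, which ranked 26, 14 and 78. For miR-26a-3p the highest r were 0.69 (miR-98-3p), 0.67 (miR-15b-3p) and 0.62 (miR-7a-1-3p), and for miR-26b-3p 0.82 (miR-15b-3p), 0.78 (miR-384-3p) and 0.76 (miR-3559-5p), at few counts of the passengers.

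Of the miRNAs linked to repression by REST, 0 of 10 passed in any comparison, with or without the block. These were both strands of miR-9a, miR-124, miR-132, miR-212 and miR-139. Over all miRNAs tested, 0% to 0.478% passed without the block and 0.159% to 6.21% with it. At such shares 0 of 10 does not set a list apart. The median log2 fold change of the REST-linked miRNAs was -0.0086 in shStau2 against shNTC, -0.077 in shPum2 against shNTC and 0.055 between the knockdowns. The most abundant, miR-9a-5p of neural progenitors and neurons and its partner miR-9a-3p, stood at 189426 and 39222 CPM in shNTC, 190438 and 38550 in shStau2, and 191241 and 36641 in shPum2. Of 10 miRNAs linked to synaptic plasticity, among them miR-384-5p, 0 passed in any comparison as well (medians 0.055, -0.022 and 0.087). The most abundant of these were miR-137-3p, which limits dendrite growth, at 10159, 9948 and 10306 CPM in shNTC, shStau2 and shPum2, and miR-181a-5p, which represses an AMPA receptor subunit, at 3936, 4275 and 4040 CPM. The potentiation partner miR-384-5p stood at 3462, 3611 and 3385 CPM.

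Some markers of other cells moved with the same groups. The miRNAs of astrocytes and dividing cells summed to 4433 to 7486 CPM in shNTC, 2553 to 3976 in shStau2 and 3084 to 5418 in shPum2. With the block 3 of these 4 fell in shStau2 against shNTC (0 without it): miR-21-5p, miR-23a-3p and miR-27a-3p, with log2 fold changes of -0.97, -0.49 and -0.51, and miR-23a-3p fell by 0.37 in shPum2 against shNTC. Of 3 blood or microglia miRNAs tested, 1 fell with the block in shStau2 against shNTC, the immune miRNA miR-155-5p, by 0.54. Against shPum2 2 of 3 fell, miR-155-5p by 0.61 and miR-142-3p of blood cells by 0.49. Of 6 vessel or mesenchyme miRNAs, 1 fell in shStau2 against shNTC, miR-126a-5p by 0.46. Of 3 oligodendrocyte miRNAs, 0 passed in any comparison. Without the block 0 markers passed. Over all miRNAs tested, the block called 6.21% in shStau2 against shNTC, 0.159% in shPum2 against shNTC and 3.98% in shStau2 against shPum2. None of the 7 neuron miRNAs passed in any comparison, and their sums overlapped between all groups. The part of these markers in the values of the guides was not tested.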

How the data were processed

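The kit behind the 12 small RNA libraries tags molecules with unique identifiers (UMIs), per the labels' protocols. The authors deposited a table of whole-number counts per small RNA name for each library, with 685 miRNA and 120 piRNA names. Per the submitters' processing notes the genome was Rnor 6.0; the aligner, the counter and whether molecules or reads were counted are not given in the sources used here. If reads were counted, floors and counting errors cover counting error only. Per the labels' protocols, RNA came from batch isolation and had an integrity number of 9.5.

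The miRNA counts were tested in edgeR 4.0.16 (R 4.3.3) with TMM factors, filterByExpr by group, robust dispersions and the quasi-likelihood test, with 12 libraries in a model by group. The filter left 628 names, all 4 miR-26 strands among them. P-values were two-sided and Benjamini-Hochberg adjusted over all names tested, with Wald standard errors. DESeq2 1.42.0 used the same names. Ratios had 0.5 added to each count; log2 CPM used a prior count of 2. Statistics were tested on simulated data.

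Same-numbered libraries of different groups correlated in their deviations from group means (r of 0.36 to 0.57 in 12 pairs, above the limit of 0.1; -0.41 to 0.14 in 36 others), so the numbers were taken to pair libraries. The members and lists were chosen with earlier results of these data known. Named were the 4 strands, miRNAs sharing their seed, the 3 most alike, neighbours in level, the 2 most abundant miRNAs of a list, and any list member past the threshold.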

Additional observations from a re-analysis of the deposited data

Results flagged for a closer look

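Among the 4 shNTC libraries, replicate 4 had a ratio of miR-26a-5p to miR-26b-5p of 5.93, set apart from the other three by Dixon's criterion at the 95% level. It was 1 of 21 groups of 4 libraries examined, and chance sets apart about 1 in 20. The same replicate number had the highest ratio in shStau2 and shPum2 too, at 7.16 and 6.20.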

How the results depend on the processing

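Of 322 values of the 4 strands under alternatives with an adjusted p, 302 kept their direction and their side of the threshold, 19 changed sign, all of them in 3 of the 12 results and none past the threshold, and 1 crossed it: miR-26a-5p in shStau2 against shNTC with upper-quartile factors within the replicate block (0.18, adjusted p = 0.0347; in all other settings the adjusted p lay above the threshold). DESeq2 gave no adjusted p for 2 further values, which kept their direction. With library totals, and with library totals within the block, the shStau2 to shNTC differences were -0.012 and -0.0022 for miR-26a-3p and -0.057 and -0.049 for miR-26b-3p. With upper-quartile factors within the block miR-26b-5p stood at 0.0061 in shStau2 against shPum2. Leaving out single libraries gave -0.028 to 0.18 for miR-26a-3p (negative without shStau2 replicate 3) and -0.074 to 0.10 for miR-26b-3p (negative without shNTC replicate 1 or 4 or shStau2 replicate 3 or 4, at -0.07, -0.047, -0.074 and -0.03), both in shStau2 against shNTC, and -0.11 to 0.059 for miR-26b-5p in shStau2 against shPum2 (positive without shPum2 replicate 1 or 3 or shStau2 replicate 4, at 0.0010, 0.059 and 0.046). Leaving out replicate numbers within the block gave -0.073 to 0.25 for miR-26a-3p (-0.010 without number 1), -0.085 to 0.19 for miR-26b-3p (-0.036 without number 1, -0.023 without number 3) and -0.098 to 0.0079 for miR-26b-5p in the same comparisons. The causes were not tested. The block with RLE or upper-quartile factors was added after seeing the data.

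The replicate block changed no call of a strand with TMM factors. It raised the calls among all miRNAs from 2 (0 higher, 2 lower) to 39 (15 higher, 24 lower) in shStau2 against shNTC, from 0 to 1 in shPum2 against shNTC and from 3 to 25 (10 higher, 15 lower) in shStau2 against shPum2. Within the block library totals gave 39 (7 higher, 32 lower), 1 and 26 (5 higher, 21 lower) calls in that order, RLE factors 43, 1 and 27, and upper-quartile factors 38 (21 higher, 17 lower), 1 and 40 (26 higher, 14 lower). DESeq2 called 18, 0 and 7; in shStau2 against shPum2 upper-quartile factors and the fit of 8 libraries called 0. Without single libraries there were 1 (without shStau2 replicate 3) to 3, 0 and 0 to 4 calls. Within the block there were 23, 23, 27 and 5 calls without numbers 1 to 4 in shStau2 against shNTC, 0, 2, 0 and 0 in shPum2 against shNTC, and 6, 51, 7 and 10 in shStau2 against shPum2. Among the alternatives for the ratios, the sign-flip test of the pairs could not pass (smallest possible p 0.125) and has the main differences by construction. In the permutation test a ratio alone at the smallest possible p of 0.0286 cannot pass after adjustment over 9 tests. The ratios kept their sign in all 90 values under alternatives, and 0 passed. Some moved by over 1.5 times without single libraries: the guide to passenger differences ran from 0.0059 to 0.21 (miR-26a) and -0.25 to -0.040 (miR-26b) in shStau2 against shNTC, from 0.054 to 0.26 (miR-26b) in shPum2 against shNTC, and from -0.33 to -0.14 (miR-26a) and -0.38 to -0.17 (miR-26b) in shStau2 against shPum2. So did differences of strands without single libraries or, within the block, numbers: in shPum2 against shNTC 0.0074 to 0.080 (miR-26a-5p), -0.24 to -0.043 (miR-26b-5p) and -0.41 to -0.080 (miR-26b-3p), and in shStau2 against shPum2 0.23 to 0.54 (miR-26a-3p) and 0.073 to 0.37 (miR-26b-3p). Depth limits the passengers, at 20 to 41 counts.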
